A study of Mus musculus with 2 samples.

Results

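High-mitochondrial cancer cells of EO771-HEVM3 primary tumours were selected on 2 properties of their transcripts, a keratin gate and a mitochondrial share over 5%. The EO771 line comes from a breast tumour of a mouse, and its derivative HEVM3 went through 3 rounds of selection in mice for spread through high endothelial venules, the vessels by which lymphocytes enter lymph nodes. Primary tumours and paired lymph nodes of 6 C57BL/6 mice were digested with enzymes and each tissue was pooled into 1 library of droplet-based 3' transcripts, so no cell can be assigned to a mouse and no untreated or non-tumour sample is among these 2 libraries. Transcripts are given as unique molecular identifiers (UMIs), and levels as counts per 1000000 UMIs (CPM) summed over the cells of a group, with the 13 mitochondrially encoded genes, whose names start with mt-, left out of the total.

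A cell entered the gate with over 200 detected genes, at least 5 UMIs and 500 CPM of Krt8 plus Krt18 (over all UMIs), at most 1 UMI of Ptprc, at most 1 of Pecam1 plus Cdh5 and under 10 of Col1a1 plus Col3a1. The gate held 8418 of 12427 primary tumour barcodes. High-mitochondrial cells, with over 5% and at most 20% of UMIs in mt- genes, were 1368 of these gated cells (16.3%, exact 95% interval 15.5 to 17.1) and 1368 of 24044 barcodes in the series. The 7030 gated cells with at most 5% are called low-mitochondrial below, and 20 gated cells lay above 20%. The study left out cells with over 5% of UMIs in mitochondrial genes, so cells like these did not enter its own comparisons. The same gate in the lymph node library held 45 high-mitochondrial and 1205 low-mitochondrial cells, a share of 3.58% (2.62 to 4.76) of its 1257 gated cells. With 1 library per tissue there was no replicate and no test was made. All intervals are exact 95% intervals that cover counting error only. Across the libraries 47 barcodes of the primary tumour were found in the lymph node as well, 6 of them in high-mitochondrial cells.

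The mitochondrial genome encodes subunits of the respiratory chain complexes and of the ATP synthase, while the remaining subunits, the mitochondrial ribosome and the enzymes that copy and transcribe that genome are encoded in the nucleus. In single-cell libraries the share of UMIs from mitochondrial genes is used to set aside cells of low quality, because loss of cytosolic RNA raises it, but it also varies with the metabolic state of a cell. Keratins 8 and 18 form the intermediate filaments of simple epithelia and mark the cancer cells here.

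The limits of the gate chose these cells, so the following values are a description. The median mitochondrial share was 6.18% (quartiles 5.45 to 7.65, highest 19.7) in high-mitochondrial cells and 2.90% in low-mitochondrial cells. Just below the limit, at 4.5 to 5%, lay 514 cells, and just above it, at 5 to 5.5%, lay 367 cells, so the limit cut through a continuous range. At the upper limit, 3 cells lay at 19 to 20% and 3 at 20 to 21%. Among the 3858 primary tumour barcodes outside the gate with over 200 genes, 21.4% (20.2 to 22.8) had a share over 5% and at most 20%.

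High-mitochondrial cells had fewer UMIs from nuclear genes but similar numbers of mitochondrial UMIs. UMIs outside mt- genes are part of the total in the share that chose the cells. Their number and its correlation with that share are therefore a description. Their median was 7100 UMIs outside mt- genes (quartiles 4242 to 13296), against 15721 (8956 to 26136) in low-mitochondrial cells, a 2.21-fold difference of the medians. The median of mt- UMIs was 525.5 against 441. Detected genes had a median of 2534 against 3872, and Krt8 plus Krt18 of 30 against 49 UMIs. When each cell was thinned to 1000 UMIs outside mt- genes, the median number of detected genes was 630 in 1349 high-mitochondrial cells and 620 in 7011 low-mitochondrial cells, with 19 shallower cells left out of each group. Across the 8398 cells of both groups, which share 1 library, Spearman's rho of the mitochondrial share with depth was -0.17. It was -0.41 within the high-mitochondrial cells and 0.04 within the low-mitochondrial cells. The study kept cells with at most 6000 genes, and 2.27% of high-mitochondrial cells (1.54 to 3.20) against 11.3% of low-mitochondrial cells (10.5 to 12.03) exceeded this. Since depth differed this much, the main gene results below are also given with the low-mitochondrial cells weighted to the depth distribution of the high-mitochondrial cells, called the value at the same depth.

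**Figure D1:**
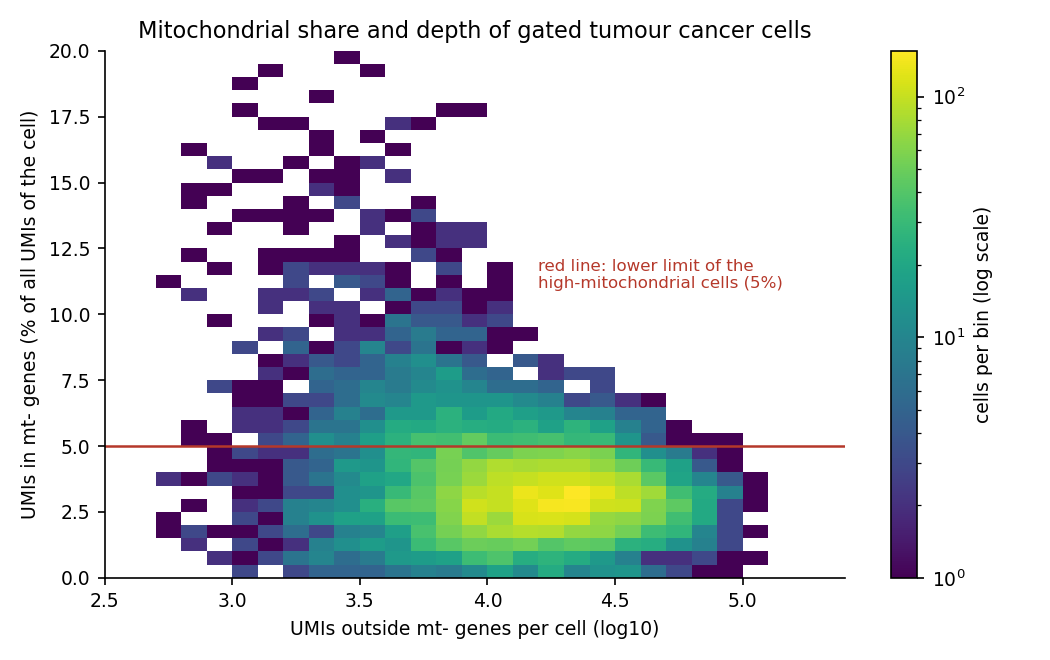
Gated primary tumour cells by UMIs outside mt- genes per cell (x axis, log10) and share of UMIs in mt- genes (y axis, percent), with colour giving the number of cells per bin on a log scale. The cells between the red line at 5% and the top of the axis at 20% are the 1368 high-mitochondrial cells, whose median depth was 7100 UMIs against 15721 below it.

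Krt8 and Krt18, which the gate used, summed to 3778 CPM in high-mitochondrial and 3080 CPM in low-mitochondrial cells. Of the 12 listed epithelial genes outside the gate, 7 passed the filter of a mean level of 10 CPM, and all of these had a log2 ratio above 0. The marker lists of T and NK cells, B cells, dendritic cells, endothelial cells, mural cells, adipocytes and skeletal muscle each summed to between 0.496 and 21.2 CPM in high-mitochondrial cells, with Ms4a1, Flt3, Siglech, Xcr1, Cldn5, Kdr and Myh4 at 0 UMIs. Macrophage and monocyte markers summed to 116 CPM against 121, and neutrophil markers to 11.04 against 24.2. Adipocyte markers summed to 0.496 against 9.22 CPM, with 56.2 CPM in the low-mitochondrial cells at 4 to 5% and 0.23 to 0.44 CPM in the other low-mitochondrial bins. Haemoglobin genes summed to 208 against 170.1 CPM without a steady direction, since their log2 ratio ran from -4.04 to 4.75 over 5 bins of depth. Dcn, a matrix proteoglycan of fibroblasts, stood at 1293 CPM against 1090, while the other fibroblast markers Col1a2, Lum, Pdgfra and Col6a1 were at most 3.61 CPM in high-mitochondrial cells. Scrublet marked 2.85% of high-mitochondrial cells (2.03 to 3.88) and 5.45% of low-mitochondrial cells (4.93 to 6.00) as doublets. The part of RNA from other cells in the gene results was not tested.

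The mitochondrial UMIs themselves had nearly the same makeup in both groups. The summed mt- UMIs chose the cells, but their split among the 13 genes did not. mt-Atp6, a subunit of the ATP synthase, held 21.8% of mt- UMIs in high-mitochondrial and 21.1% in low-mitochondrial cells. The cytochrome c oxidase subunits followed with 20.4% and 20.7% for mt-Co1, 16.8% and 17.4% for mt-Co2, and 15.8% and 14.8% for mt-Co3. The largest log2 ratios of the shares were 0.23 (0.14 to 0.31) for mt-Atp8 and -0.19 (-0.20 to -0.18) for mt-Cytb, the cytochrome b of complex III. No mt- gene thus differed by 1.5-fold in its share.

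Of 7786 nuclear genes that passed the filter, 202 (2.59%) were at least 1.5-fold higher and 114 (1.46%) at least 1.5-fold lower in high-mitochondrial than in low-mitochondrial cells. The median log2 ratio over all tested genes was 0.10, and single ratios ran from -1.197 to 1.30. At the same depth 61 genes were higher and 12 lower, of which 38 and 10 were among the former 202 and 114. The higher and lower counts changed to 83 and 184 when ratios were divided by their median, and to 124 and 141 when mt- UMIs were kept in the total.

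Over all depths together, genes of mitosis were lower in high-mitochondrial cells, but their list was higher in 4 of 5 bins of depth. Among genes detected in 10% or more of low-mitochondrial cells with a ratio below 0 at the same depth as well, the 15 with the lowest ratios all encode proteins of cell division, namely Cdkn3, Ccnb1, Ube2c, Spc24, Birc5, Depdc1a, Plk1, Prc1, Cenpa, Cdc20, Cenpf, Hmmr, Aspm, Nek2 and Ncapg, with log2 ratios from -0.91 to -1.197. Ccnb1, the cyclin that drives entry into mitosis, stood at 28.9 CPM against 64.8 (log2 ratio -1.16, -1.31 to -1.02), and at -0.63 at the same depth. Ube2c, the conjugating enzyme of the anaphase-promoting complex, stood at 197 against 426 CPM (-1.12, -1.17 to -1.06, and -0.62 at the same depth), and Birc5, a subunit of the chromosomal passenger complex, at 117 against 241 CPM (-1.04, -1.12 to -0.97, and -0.54 at the same depth). Of the 13 listed G2M genes 12 were at least 1.5-fold lower and 0 higher, beside 1.46% of all genes lower, and the list median was -0.91, or -0.43 at the same depth. Only Hmgb2, a chromatin protein, stayed inside the limit in this list (274 against 389 CPM, -0.51). Of the 13 S phase genes tested 4 were at least 1.5-fold lower, namely Tyms, Rrm2, Gins2 and Cdc6, beside the same 1.46% of all genes, and the list median was -0.40. At the same depth the median was -0.10 and the summed ratio -0.07, against -0.34 without weights. The replication licensing gene Mcm2 stood at 50.6 against 66.7 CPM (-0.40), and Pcna, the sliding clamp of replication, at 221 against 257 CPM (-0.22).

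The promoters of G2M genes carry 2 known elements, a CCAAT box bound by NF-Y and a cell cycle genes homology region (CHR) bound by the DREAM complex, and are shown for 3 members that were low together. RefSeq promoter windows of 300 bases on GRCm38.p6, from 250 before to 50 after the start, were found for 12 of the 13 G2M genes. Searched on both strands, CCAAT together with a CHR (TTTGAA or TTTAAA) was in 11 of these 12 windows and in 10.9% of 27025 windows of all genes. Each window is written on the strand of its gene with CCAAT boxes and CHRs in capitals, either orientation included, for Ccnb2 at chr9:70421505-70421804 (minus strand), Cdk1 at chr10:69352863-69353162 (minus strand) and Ube2c at chr2:164769679-164769978 (plus strand). The windows hold 3, 3 and 6 CCAAT boxes and 2, 2 and 1 CHRs, and in Ube2c 2 of the CCAAT boxes overlap.
Ccnb2: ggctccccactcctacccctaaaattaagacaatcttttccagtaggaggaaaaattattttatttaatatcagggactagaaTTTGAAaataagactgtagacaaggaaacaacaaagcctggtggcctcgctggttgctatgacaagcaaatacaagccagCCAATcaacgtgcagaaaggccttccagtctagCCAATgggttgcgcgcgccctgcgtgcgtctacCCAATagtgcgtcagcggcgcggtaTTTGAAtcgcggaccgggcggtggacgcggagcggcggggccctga
Cdk1: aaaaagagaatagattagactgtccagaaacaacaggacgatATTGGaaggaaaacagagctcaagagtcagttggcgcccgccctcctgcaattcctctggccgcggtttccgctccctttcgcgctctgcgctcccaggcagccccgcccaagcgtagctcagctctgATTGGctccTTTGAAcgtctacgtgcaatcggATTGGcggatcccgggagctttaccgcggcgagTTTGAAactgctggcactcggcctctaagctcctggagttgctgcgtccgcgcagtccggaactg
Ube2c: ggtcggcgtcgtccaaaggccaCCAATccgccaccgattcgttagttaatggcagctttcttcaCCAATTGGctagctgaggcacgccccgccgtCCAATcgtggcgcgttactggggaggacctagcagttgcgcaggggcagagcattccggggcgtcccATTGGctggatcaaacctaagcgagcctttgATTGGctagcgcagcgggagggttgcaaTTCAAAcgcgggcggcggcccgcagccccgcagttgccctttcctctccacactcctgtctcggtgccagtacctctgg

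The lower level of these genes moved with depth, whose part in it was not tested. Cdk1, the kinase partner of cyclin B, stood at 59.5 CPM against 110 (-0.88, -0.98 to -0.78), but at the same depth its log2 ratio was -0.43, and that of Ccnb2 moved from -0.69 to -0.32. Summed over the list, G2M genes held 1269 CPM against 2255 (-0.83, -0.85 to -0.81), and -0.38 at the same depth. Within 5 bins of depth with equal numbers of high-mitochondrial cells, the sign differed. In the deepest bin, with 274 high-mitochondrial and 3529 low-mitochondrial cells of over 15651 UMIs, the list held 1704 against 2694 CPM (-0.66, -0.69 to -0.63). In the 4 shallower bins it was higher in high-mitochondrial cells, with log2 ratios of 0.35 (0.17 to 0.53), 0.27 (0.16 to 0.39), 0.65 (0.57 to 0.74) and 0.11 (0.05 to 0.17) from the shallowest up. S phase genes followed the same signs, from -0.21 in the deepest bin to 0.39 in the middle bin. The summed cell cycle lists were thus lower over all depths together and among deep cells, and higher among shallower cells. Single genes went both ways in the shallower bins, as with Ccnb1 at -1.55 in the shallowest and 0.69 in the middle bin. In the deepest bin the median depth was still 23025 UMIs in high-mitochondrial and 26092 in low-mitochondrial cells.

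**Figure D2:**
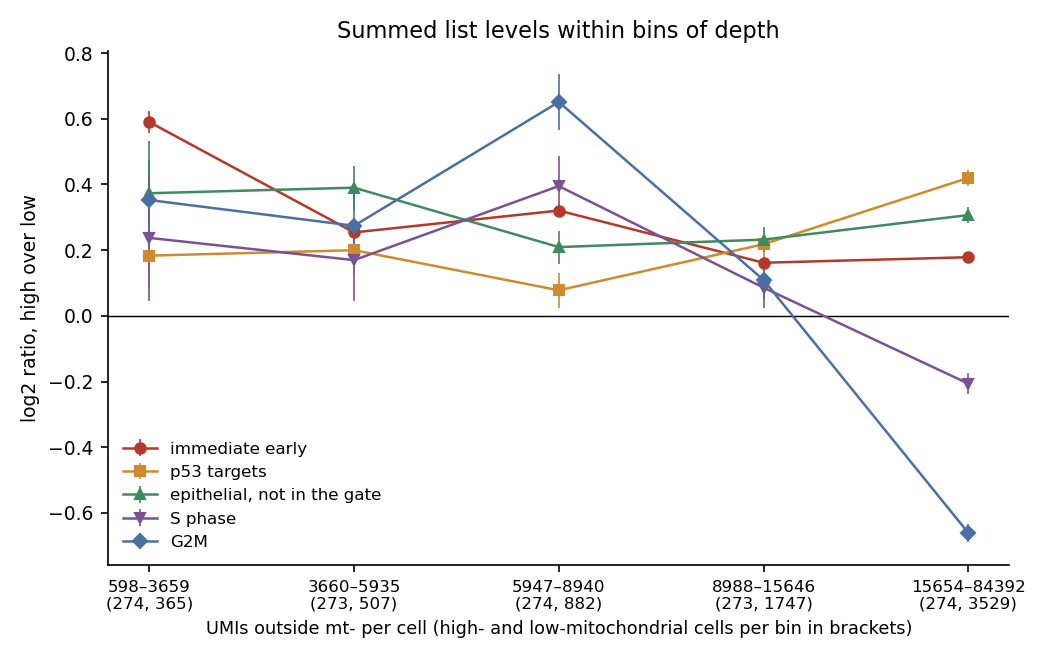
Log2 ratios of summed list levels in high- over low-mitochondrial cells (y axis, exact 95% intervals as bars) in 5 bins of UMIs outside mt- genes per cell (x axis, labelled by the range of the high-mitochondrial cells, with cells of each group in brackets). Immediate early, p53 target and epithelial lists lie above 0 in each bin, whereas G2M genes run from 0.65 in the middle bin to -0.66 in the deepest.

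Immediate early genes, which encode transcription factors and feedback regulators made within minutes of a stimulus or of cell handling, were higher in high-mitochondrial cells. All 15 listed genes had a log2 ratio above 0, 8 were at least 1.5-fold higher and 0 lower, beside 2.59% of all genes higher, and the list median was 0.68 against 0.10 over all genes. Fos, a subunit of the AP-1 factor, stood at 538 CPM (526 to 550) against 267 (265 to 270), a log2 ratio of 1.01 (0.97 to 1.04) and 0.54 at the same depth. Its relative Fosb stood at 754 against 414 CPM (0.87), Jun at 298 against 186 (0.68) and the stress factor Atf3 at 715 against 442 (0.69). Among the feedback regulators, Dusp1, a MAP kinase phosphatase, stood at 848 against 471 CPM (0.85, 0.82 to 0.87) and Zfp36, which promotes decay of AU-rich mRNAs, at 184 against 101 CPM (0.86). Egr1 and Btg2 were the other 2 genes past 1.5-fold. Jund, a further AP-1 subunit, and Myc had the smallest ratios of the list, 0.31 and 0.22, and Jund stood at 0.02 at the same depth. The list summed to 9317 CPM against 6149 (0.60, 0.59 to 0.61).

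These genes also moved with depth, but their direction held. At the same depth the summed list stood at 0.24 and the list median at 0.28, beside a median of 0.12 over all genes. Within the 5 depth bins the summed log2 ratio was 0.59, 0.25, 0.32, 0.16 and 0.18 from the shallowest bin to the deepest. Fos was higher in each bin, from 1656 against 959 CPM in the shallowest to 260 against 221 CPM in the deepest. In single cells the list took a median of 0.80% of UMIs outside mt- genes in high-mitochondrial cells (quartiles 0.44 to 1.65) and 0.57% in low-mitochondrial cells (0.32 to 1.02), so the quartile ranges of the groups overlapped. Of 12 immediate early genes with a RefSeq promoter window, 2 held the cyclic AMP response element TGACGTCA, beside 1.88% of all windows. The Dusp1 window at chr17:26508423-26508722 (minus strand) is shown with this element in capitals as the example among the genes at least 1.5-fold higher.
Dusp1: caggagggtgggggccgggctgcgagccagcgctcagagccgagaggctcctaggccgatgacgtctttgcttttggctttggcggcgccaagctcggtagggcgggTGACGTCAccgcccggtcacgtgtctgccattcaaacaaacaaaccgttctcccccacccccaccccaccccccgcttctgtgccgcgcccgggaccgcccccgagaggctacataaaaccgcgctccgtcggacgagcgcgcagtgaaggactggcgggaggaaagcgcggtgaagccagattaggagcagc

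Targets of the p53 protein, the factor that halts the cycle or starts apoptosis after damage, were higher too. Of 12 tested genes 5 were at least 1.5-fold higher and 0 lower, beside 2.59% of all genes higher, with a list median of 0.38 and of 0.35 at the same depth. Cdkn1a, the p21 inhibitor of cyclin-dependent kinases, stood at 568 against 378 CPM (0.59, 0.55 to 0.62) and at 0.43 at the same depth. Mdm2, the ubiquitin ligase that degrades p53, stood at 199 against 129 CPM (0.63, and 0.58 at the same depth). Trp53inp1 was at 56.6 against 30.3 CPM (0.90, and 0.52 at the same depth), Bbc3, which encodes the apoptosis inducer PUMA, at 34.3 against 22.04 (0.64), and the death receptor Eda2r at 12.7 against 7.79 (0.71), so that Eda2r reached the mean of 10 CPM only through the high-mitochondrial cells. Bax alone among the 12 lay below 0 (262 against 290.2 CPM, -0.15), and it stood at 0.11 at the same depth. Within depth bins the summed list was higher in all 5, from 0.08 in the middle bin to 0.42 in the deepest. Gdf15, a stress-induced cytokine counted in the integrated stress response list, stood at 282 against 172 CPM (0.71, 0.66 to 0.76), with 0.71 at the same depth. It and Sesn2 (20.7 against 13.6 CPM, 0.61) were the 2 genes at least 1.5-fold higher among 12 of that list, with 0 lower, beside 2.59% and 1.46% of all genes, while its central factor Atf4 stood at 302 against 249 CPM (0.28) and the serine synthesis gene Psat1 at 76.1 against 89.1 CPM (-0.23).

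**Figure D3:**
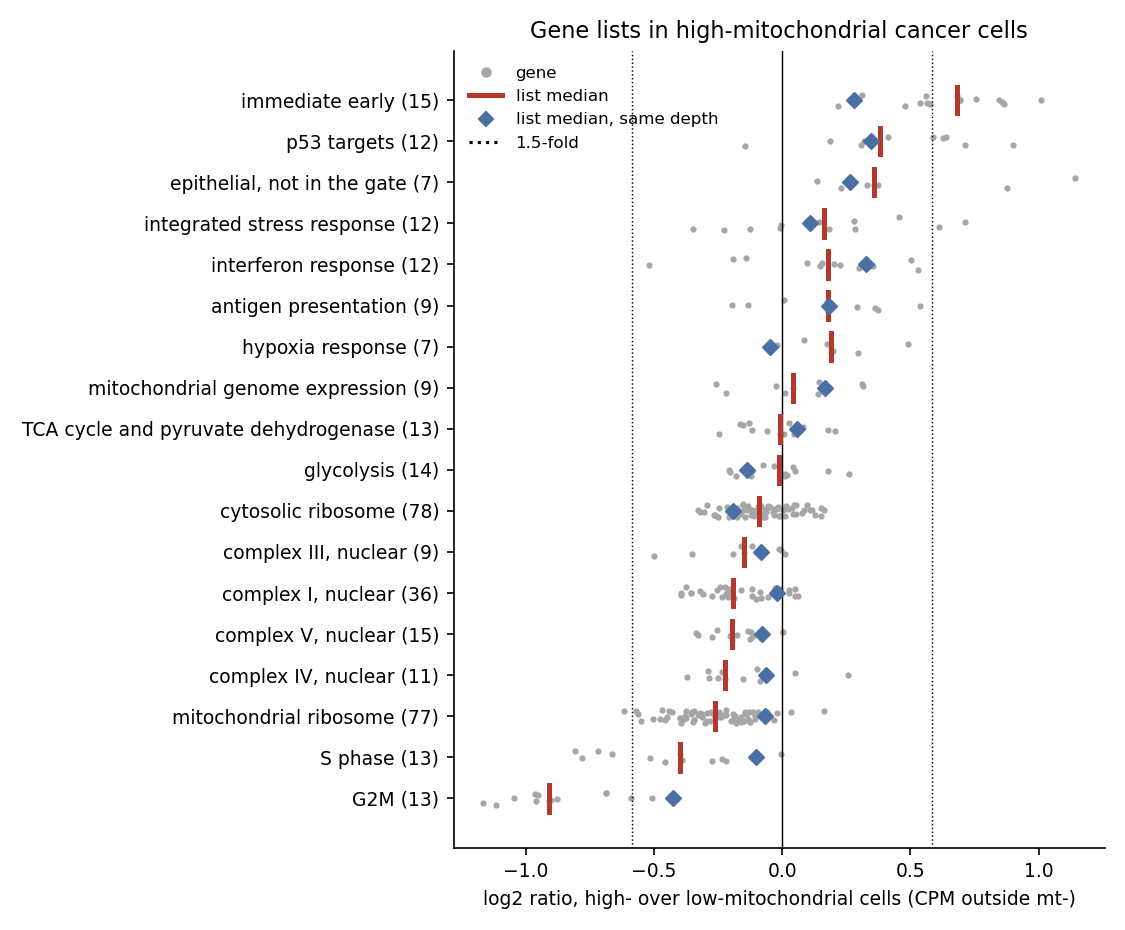
Log2 ratios of single genes (grey points) in high- over low-mitochondrial cells by gene list, with the number of tested genes in brackets, the list median (red bar) and the list median at the same depth (blue diamond). Dotted lines mark 1.5-fold, which 12 of 13 G2M genes and 8 of 15 immediate early genes exceed in opposite directions.

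Of the 7 tested epithelial genes outside the gate 2 were at least 1.5-fold higher and 0 lower, beside 2.59% of all genes higher, and the list median was 0.36. Host mammary epithelium markers moved with them, at 80.3 against 57.5 CPM (0.48, 0.39 to 0.57, and 0.39 at the same depth), with 1 of 2 tested genes at least 1.5-fold higher and the milk protein genes Csn2 and Wap at 0 UMIs in high-mitochondrial cells, and their part in the result was not tested. Cldn4, a claudin of tight junctions, was at 114 CPM (109 to 120) against 51.8 (50.6 to 53.04), a log2 ratio of 1.14 (1.06 to 1.22) and 0.70 at the same depth. Epcam, an epithelial adhesion molecule, was at 151 against 82.2 CPM (0.88, and 0.63 at the same depth). Gabrp, Fxyd3 and Gpa33 lay outside this list and were named for being among the 15 highest ratios, so their values are a description. Gabrp, the pi subunit of the GABA-A receptor, was at 37.4 against 15.997 CPM (1.23, 1.09 to 1.36) and stood at 1.03 at the same depth. Fxyd3, a regulator of the sodium pump, was at 79.8 against 39.3 CPM (1.02) and the epithelial surface antigen Gpa33 at 14.3 against 7.13 (1.01, and 0.57 at the same depth). The keratins Krt7, Krt19 and Krt14 had smaller ratios of 0.23, 0.33 and 0.36. Within the depth bins Cldn4 ran from 0.55 to 1.17 and Gabrp from 0.71 to 1.61.

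After thinning to 1000 UMIs, Cldn4 was expected in 12.2% of high-mitochondrial and 6.17% of low-mitochondrial cells, and without thinning it was found in 39.2% and 34.2%. In 1301 cells with at least 2 UMIs of Ptprc and under 5 of Krt8 plus Krt18, which should lack it, the share was 0.45% after thinning of 1144 of them, at a median depth of 2057 UMIs. Epcam gave 15.9%, 8.998% and 0.35% in the same order. Both genes thus had higher shares in both groups of cancer cells than in these Ptprc cells. Since the Ptprc cells were chosen for few keratin UMIs and the cancer cells for more, this is a description and not a measured background.

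Lars2, the mitochondrial leucyl-tRNA synthetase encoded in the nucleus, had the second highest ratio of all named genes. It stood at 202 CPM (195 to 210) against 84.7 (83.1 to 86.2), a log2 ratio of 1.26 (1.198 to 1.32) and 0.68 at the same depth. Among low-mitochondrial cells it stood at 82.6, 81.6 and 83.8 CPM in the bins of mitochondrial share up to 2%, 2 to 3% and 3 to 4%, and was already higher at 4 to 5%, with 95.3 CPM (91.2 to 99.4). In high-mitochondrial cells it was higher with each step, at 128 CPM for 5 to 6%, 221 for 6 to 8%, 382 for 8 to 10%, 817 (737 to 903) for 10 to 15% and 1259 (1036 to 1516) for 15 to 20%. Depth was lower with each of the same steps, from a median of 9873 to 2538 UMIs. Within the 5 depth bins the log2 ratio of Lars2 stayed between 0.36 and 0.88. Cells with Ptprc UMIs, at a median depth of 2057 UMIs, held 235 CPM of Lars2, against 698 CPM in high-mitochondrial and 387 CPM in low-mitochondrial cells of the shallowest depth bin, with median depths of 2387 and 2586 UMIs. Annotated Lars2 transcripts of GRCm38 shared no run of over 14 bases, on either strand, with the mitochondrial ribosomal RNAs mt-Rnr1 and mt-Rnr2 or with Gm42418, Gm26917 and AY036118, which overlap ribosomal RNA repeats. Only exact runs were compared, and none of these 5 genes was in the table. Whether reads from ribosomal RNA or from unannotated sequence were counted at Lars2 was not tested.

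The nuclear genes of mitochondrial function are given by list. Of 36 nuclear genes of complex I, 9 of complex III, 11 of complex IV and 15 of the ATP synthase, 0 passed 1.5-fold in either direction, beside 2.59% of all genes higher and 1.46% lower, and their list medians were -0.19, -0.15, -0.22 and -0.19. At the same depth these medians were -0.02, -0.08, -0.06 and -0.08. The 4 genes of complex II, which is encoded wholly in the nucleus, had a median of -0.07 and of 0.09 at the same depth, and their summed ratio lay between 0.02 and 0.09 in the 5 depth bins. Cox5b, a subunit of cytochrome c oxidase, stood at 508 against 658 CPM (-0.37), whereas Cox6a1 of the same complex stood at 355 against 297 (0.26). Of 77 tested genes of the mitochondrial ribosome 75 lay below 0, while 65.1% of all tested genes lay above 0, with a median of -0.26 and of -0.07 at the same depth, and only Mrpl42 (79.5 against 122 CPM, -0.62) was at least 1.5-fold lower, beside 1.46% of all genes. The summed ratio of this list turned to 0.08 in the middle depth bin and to 0.0296 among cells low in cell cycle genes. Genes that copy and express the mitochondrial genome had a median of 0.04 and of 0.17 at the same depth, and their summed ratio lay above 0 in each of the 5 depth bins, from 0.08 to 0.36. Tfam, the packaging factor of mitochondrial DNA, stood at 29.4 against 34.2 CPM (-0.22, and 0.03 at the same depth) and its polymerase Polg at 48.0 CPM against 38.7 (0.31). The mitochondrial chaperone Hspe1 stood at 1205 against 1592 CPM (-0.40). Pink1, the kinase that marks damaged mitochondria, stood at 15.9 against 11.5 CPM (0.46), and at 0.10 at the same depth.

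Cytosolic ribosomal protein genes, by far the largest class of UMIs listed, summed to 284962 CPM in high-mitochondrial and 300705 CPM in low-mitochondrial cells (-0.08). At the same depth the ratio was -0.17, and it was below 0 in each of the 5 depth bins, from -0.35 in the shallowest to -0.12 in the deepest. None of the 78 tested genes passed 1.5-fold, beside 2.59% of all genes higher and 1.46% lower, and 60 of them lay below 0, while 65.1% of all tested genes lay above 0.

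The interferon response list had a summed log2 ratio of 0.23 (0.21 to 0.25), and 0.30 at the same depth, with 0 of 12 genes past 1.5-fold in either direction, near the shares of 2.59% and 1.46% over all genes. Its members went both ways, with the guanylate-binding protein Gbp2 at 186 against 131 CPM (0.50) and the ubiquitin-like Isg15 at 27.8 against 39.8 CPM (-0.52). Antigen presentation genes summed to 0.19, with H2-D1, a class I heavy chain, at 918 against 751 CPM (0.29) and the immunoproteasome subunit Psmb8 at 200.5 against 230 CPM (-0.20). Of the genes that the study followed, Sema3c, a secreted semaphorin, stood at 185 against 141 CPM (0.39, and 0.52 at the same depth), its receptor gene Nrp2 at 113 against 89.4 (0.34), the RNA editing enzyme Adar at 23.3 against 21.2 (0.14) and the double-stranded RNA sensor Ifih1 at 16.3 against 18.4 (-0.17), all within 1.5-fold. The list of 5 study genes summed to a log2 ratio of 0.33, and 0.41 at the same depth, and lay above 0 in each of the 5 depth bins. Of these genes 0 passed 1.5-fold, beside 2.59% of all genes higher and 1.46% lower. Hypoxia genes summed to 0.24 but to -0.16 at the same depth, so no direction is given for them. Cyp1a1, a detoxifying enzyme of the aryl hydrocarbon receptor pathway, was at 119 against 72.6 CPM (0.71) and at 1.14 at the same depth, with a UMI in 13.4% of high-mitochondrial and 17.7% of low-mitochondrial cells. It was the 1 gene at least 1.5-fold higher of 6 in the list of tumour cell states, with 0 lower, beside 2.59% and 1.46% of all genes. Of these 6 genes 4 lay above 0 and 2 below, with a median of 0.03.

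Of the tested genes for glycolysis (14), the tricarboxylic acid cycle (13), the unfolded protein response (10), apoptosis (12), antioxidant defence (11), mitophagy and mitochondrial dynamics (11) and mesenchymal state (7), 0 passed 1.5-fold in either direction, beside 2.59% of all genes higher and 1.46% lower, and their medians ran from -0.01 to 0.17, with 0.10 over all genes. Glycolysis had a median of -0.14 at the same depth, and its summed ratio was below 0 in each of the 5 depth bins, from -0.22 to -0.15. The summed ratios of the tricarboxylic acid cycle (0.01 to 0.14) and mesenchymal (0.06 to 0.31) lists were above 0 in each bin. The other lists went both ways. Cycs, the cytochrome c that carries electrons to complex IV, stood at 417 against 568 CPM (-0.45), and at -0.18 at the same depth. Xbp1, a factor of the unfolded protein response, stood at 117 against 82.5 CPM (0.51), and the haem oxygenase gene Hmox1 at 57.3 against 41.5 CPM (0.47). Both lay nearer 0 at the same depth, with 0.20 and 0.22. Fn1, which encodes the matrix protein fibronectin, stood at 918 against 631 CPM (0.54) and at 0.47 at the same depth. Areg, a ligand of the epidermal growth factor receptor, was past 1.5-fold at 52.5 against 33.8 CPM (0.64).

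**Figure D4:**
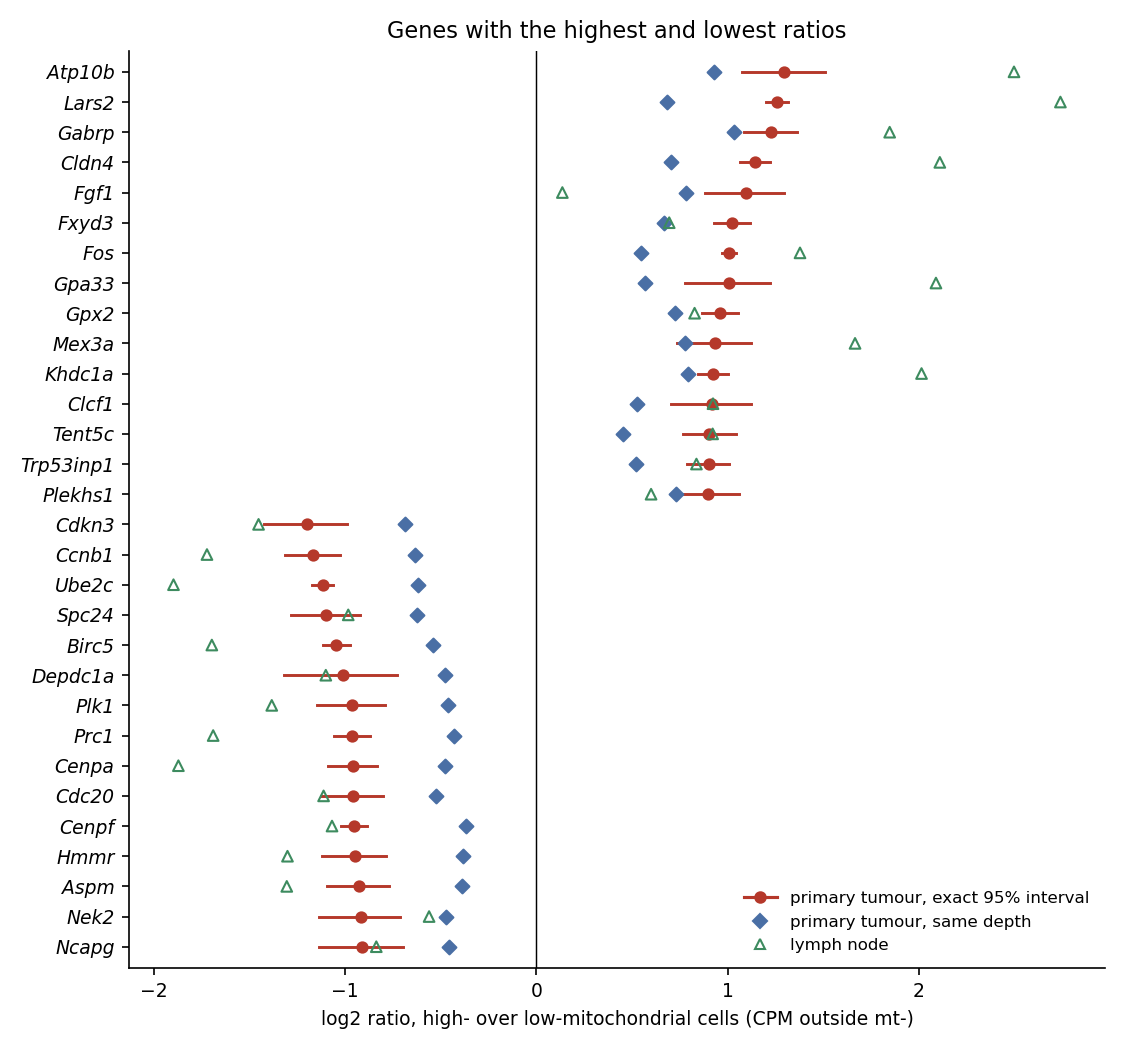
Log2 ratios in high- over low-mitochondrial cells for the 15 highest and 15 lowest ratios among genes detected in 10% or more of cells of the higher group, in the primary tumour (red points with exact 95% intervals), at the same depth (blue diamonds) and in the lymph node (green triangles). The mitotic genes, from -0.91 to -1.197, lie nearer 0 at the same depth, and the higher genes range from 0.90 to 1.30.

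The remaining genes of the 15 with the highest ratios were Atp10b, a phospholipid flippase (15.7 against 6.41 CPM, 1.30), the growth factor gene Fgf1 (16.8 against 7.88 CPM, 1.09), the glutathione peroxidase gene Gpx2 (80.2 against 41.3 CPM, 0.96), the RNA-binding protein gene Mex3a (18.8 against 9.86 CPM, 0.94), Khdc1a (110 against 58.2 CPM, 0.93), the cytokine gene Clcf1 (15.8 against 8.37 CPM, 0.92, and 0.53 at the same depth), the poly(A) polymerase gene Tent5c (36.0 against 19.3 CPM, 0.91, and 0.45 at the same depth) and Plekhs1 (24.6 against 13.2 CPM, 0.90). Of the 15 highest genes, Fos, Gpa33, Clcf1, Tent5c and Trp53inp1 were under 1.5-fold at the same depth, and of the 15 lowest genes 11, all but Cdkn3, Ccnb1, Ube2c and Spc24. These 15 genes were chosen for a high ratio that was above 0 at the same depth, so their values within depth bins are a description, with 14 above 0 in each of the 5 bins and Clcf1 in 4. Those with a low-mitochondrial level under 10 CPM, such as Atp10b, Gpa33 and Clcf1, reached the mean of 10 CPM only through the high-mitochondrial cells. For the 15 lowest genes, the ratio lay above 0 in at least 1 depth bin and below 0 in at least 1.

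In the lymph node, high-mitochondrial cancer cells were only 45, with 4 to 392 UMIs per named gene. Their median depth was 21552 UMIs against 44298 in its 1205 low-mitochondrial cells, and the lymph node ratios were not weighted to the same depth. Of the 15 highest genes of the primary tumour 14 had a higher CPM in high-mitochondrial cells of the lymph node as well, 11 with an interval above 0, beside 54.1% and 18.1% of all tested genes. All 15 lowest genes had a lower CPM, 14 with an interval below 0, beside 45.9% and 15.8% of all tested genes. Lars2 stood at 359 against 53.9 CPM (log2 ratio 2.74, 2.58 to 2.89), Gabrp at 41.3 against 11.6 (1.85) and Fos at 149 against 57.3 (1.38). Ube2c stood at 167 against 623 CPM (-1.90, -2.12 to -1.69). Fgf1 was the exception, with 3.67 against 3.75 CPM from 4 UMIs.

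The high-mitochondrial cells were not uniform along their own range. Immediate early genes summed to 8221 CPM in the 616 cells at 5 to 6%, 9547 at 6 to 8%, 14172 at 8 to 10% and 16905 at 10 to 15%, against 6149 over all low-mitochondrial cells. In the 30 cells at 15 to 20% they were at 14278 CPM. G2M genes went from 1365 CPM at 5 to 6% to 666 CPM at 8 to 10%, but stood at 1268 CPM in the 113 cells at 10 to 15% and at 3198 CPM in the 30 cells at 15 to 20%. The p53 targets lay between 1701 and 2166 CPM in these 5 bins, against 1501 CPM in low-mitochondrial cells. Median depth went from 9873 to 2538 UMIs over the same bins, and its part in these steps was not tested. The 20 gated cells over 20% had 44273 CPM of immediate early genes at a median depth of 1615 UMIs.

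**Figure D5:**
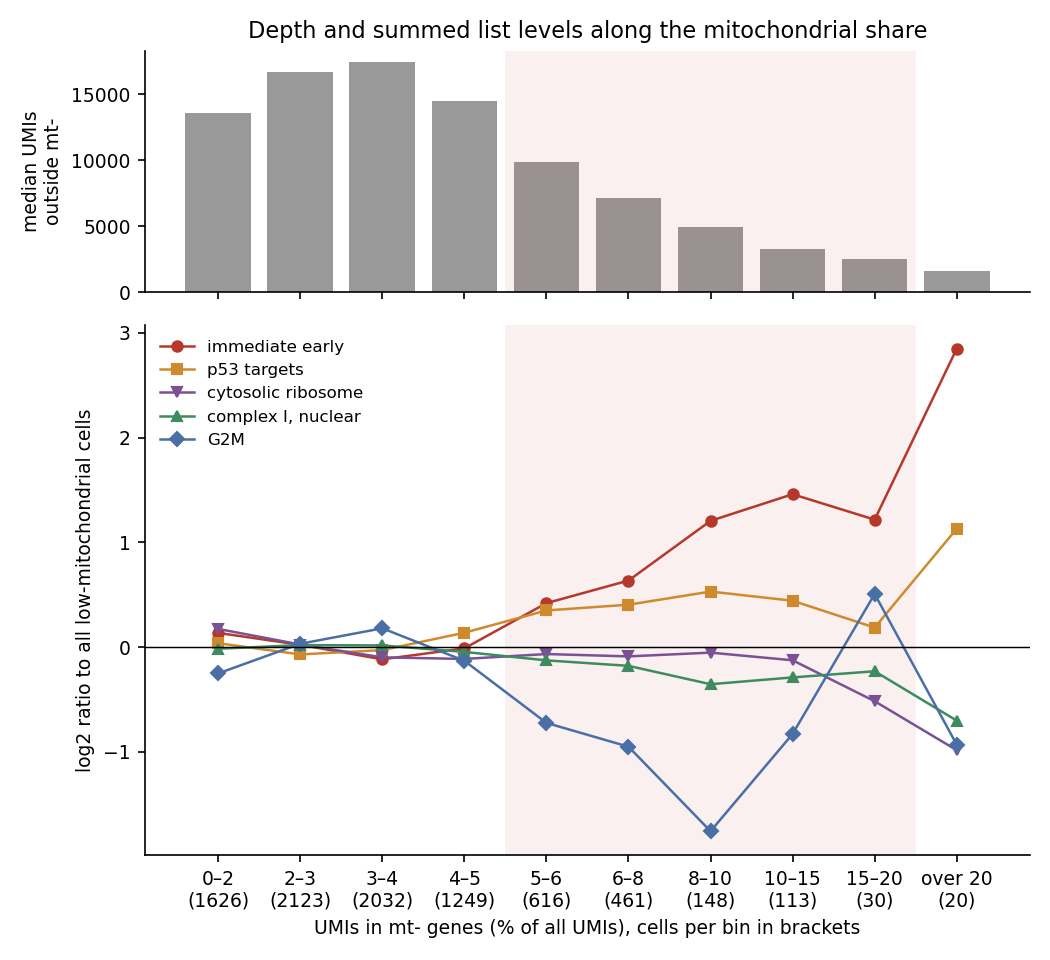
Median UMIs outside mt- genes per cell (upper bars) and log2 ratios of summed list levels to all low-mitochondrial cells (lower lines) in bins of the mitochondrial share (x axis, percent, with cells per bin in brackets), with high-mitochondrial bins shaded. Immediate early genes stand at 8221 CPM in the lowest shaded bin and at 16905 CPM at 10 to 15%, while median depth goes from 9873 to 2538 UMIs across the shaded bins.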

How the data were processed

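The deposited matrices hold UMI counts per gene and cell, made by the authors with Cell Ranger and not normalized. The version is 5.0.0 per the file headers and 2.1.1 in the submitters' processing notes, on GRCm38. The gene table held 22620 genes without long noncoding RNAs such as Malat1 and without mitochondrial ribosomal RNA. The study dropped doublets with DoubletFinder in its own analysis, and whether the deposited matrices had been so filtered is not stated. All columns of counts were used (0 left out).

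Cells were gated by fixed limits without clustering. Counts were summed per group, divided by UMIs outside mt- genes, and filtered at a mean of 10 CPM over both groups. Log2 ratios had 0.5 added to each sum, with exact intervals from the split of both sums. Levels have exact Poisson and shares exact Clopper-Pearson intervals. Weights for the same depth used 10 bins of depth. Named were genes of the lists, and the 15 highest and 15 lowest ratios among genes detected in 10% or more of cells of the higher group and the same direction at the same depth, without mt- genes and the 7 gate genes. The gene Cyp1a1 belongs to a list of tumour cell states. Doublets were scored with Scrublet in scanpy 1.11.5, which marked 655 of 12276 cells (5.34%), and were kept. Summed UMIs outside mt- genes were 14125700 and 138278000. The members and lists were chosen with earlier results of these data known. The ratios, intervals and thinning were tested on simulated data. Other settings varied the gate, doublets, mitochondrial limits, scaling, filters and fold. Scripts ran in python 3.11.15 with scipy 1.17.1, numpy 2.4.6, pandas 2.3.3 and matplotlib 3.10.9.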

Additional observations from a re-analysis of the deposited data

Results flagged for a closer look

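For 4 gene lists the summed log2 ratio of high- over low-mitochondrial cancer cells lay on opposite sides of 0 in the 2 tissues, with both exact intervals apart from 0. The difference itself was not tested, since each tissue had 1 library, and the lymph node values rest on 45 cells. Cytosolic ribosomal protein genes stood at -0.0776 in the tumour library and 0.0977 in the lymph node library. The integrated stress response list stood at 0.24 in the tumour library and -0.21 in the lymph node library, where its serine synthesis gene Phgdh was at -0.80. Heat shock genes stood at 0.0137 and -0.18, with Hsp90aa1 at -0.54 in the lymph node. Haemoglobin genes stood at 0.29 and -4.17. In the tumour library their ratio ran from -4.04 to 4.75 over 5 bins of depth, with levels that varied along the high-mitochondrial range (25.9 at 8 to 10% and 1068 at 10 to 15%), and in the lymph node they summed to 2.75 CPM in high-mitochondrial and 57.7 CPM in low-mitochondrial cells.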

How the results depend on the processing

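With the keratin floor over UMIs outside mt- genes, and without barcodes found in both libraries (chosen after seeing the data), all values stayed within counting error or 1.5-fold of their counts. With cells of at most 6000 genes the 202 higher and 114 lower genes became 105 and 30, the depth ratio 2.03, and the G2M and immediate early ratios -0.52 and 0.45. At the same depth these were 61 and 12 genes, -0.38 and 0.24, and the hypoxia list turned to -0.16. With a limit of 7.5% there were 364 cells, a depth ratio of 3.515, 1394 and 613 genes, -1.23 and 1.16. With 5 to 10% the depth ratio was 2.01 and the immediate early ratio 0.55. Against cells of at most 3%, 411 genes were higher, with -0.75 and 0.53. Means of single-cell levels gave 361 higher genes, -0.67 and 0.78. Division by the median gave 83 and 184 genes, -0.93 and 0.50, and a total with mt- UMIs 124 higher genes, -0.88 and 0.55. Without a filter on level 4080 and 818 genes passed, and at 2-fold 9 and 6. The G2M ratio was -0.89 without cells marked as doublets and -0.77 without UMIs of the 5 excluded genes. Among cells with under 0.1% of UMIs in cell cycle genes, chosen after seeing the data, 11 genes were lower, the immediate early ratio was 0.27, the hypoxia list -0.22 and the mitochondrial ribosome list 0.0296. Cell cycle lists were not run there, since their UMIs chose the cells. The cause of these shifts was not tested. No paired analysis was possible because each tissue had 1 library and both groups of cells came from it. Depth limits genes under 10 CPM, where the 0.5 added to each sum raises the ratio of a gene with few UMIs in the smaller total.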

Other observations

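Some genes outside the gene lists, chosen after their values were seen, also differed by over 1.5-fold in the primary tumour. Hbegf, a ligand of the epidermal growth factor receptor, stood at 592 CPM in high-mitochondrial and 331 CPM in low-mitochondrial cells (log2 ratio 0.84, and 0.53 at the same depth). The secreted regulators Thbs1, at 516 against 324 CPM (0.67), and Ccn2, at 422 against 236 CPM (0.84), were higher as well. Lbp, which encodes the lipopolysaccharide-binding protein, stood at 203 against 111 CPM (0.87, and 0.76 at the same depth), and the transcription factor gene Onecut2 at 131 against 72.1 CPM (0.86).

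Another 4 genes, likewise chosen after their values were seen, had lower levels in high-mitochondrial cells. The chemokine gene Ccl5 stood at 7.01 against 14.0 CPM (log2 ratio -0.99, and -1.49 at the same depth), Il1b at 12.7 against 19.9 CPM (-0.64 and -1.21) and the platelet factor gene Pf4 at 11.3 against 17.1 CPM (-0.60 and -0.99). The actin-binding protein gene Tmsb4x, abundant in leukocytes, stood at 79.1 against 124 CPM (-0.65 and -1.04). Neutrophil markers summed to 11.04 against 24.2 CPM (-1.12 and -1.69), T and NK cell markers to 21.2 against 24.1 CPM (-0.18, -0.36 to -0.01, and -0.25 at the same depth), macrophage and monocyte markers to 116 against 121 CPM (-0.06, -0.13 to 0.01, and -0.30) and B cell markers to 0.708 against 0.788 CPM (-0.09, -1.26 to 0.78, and -0.58). Haemoglobin genes stood at 208 against 170.1 CPM (0.29, and 0.14 at the same depth). The part of RNA from other cells in these values was not tested.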
